A study of Mus musculus with 10 samples.

Results

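Inflammatory chemokines are small secreted proteins that draw leukocytes along a gradient by binding G protein-coupled receptors. CC ligands such as Ccl2, Ccl7 and Ccl9 act mainly on monocytes and other myeloid cells, and the CXC ligands Cxcl1 and Cxcl5 recruit neutrophils. Cx3cl1 and Cxcl16 differ from the rest of the family in being made as membrane-anchored proteins, which act as adhesion molecules until proteases shed them. Stromal cells transcribe many of these genes in response to cytokines such as tumor necrosis factor and interleukin 1, largely through NF-kB. The 10 ligand genes Ccl2, Ccl4, Ccl7, Ccl9, Cxcl1, Cxcl5, Cxcl10, Cxcl14, Cxcl16 and Cx3cl1 were chosen by symbol. Of these, 9 were found among the 26888 genes measured in OP9 stromal cells, and Cxcl14 was not analysed here.

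OP9 is a stromal line, labelled as derived from fetal calvaria, of (C57BL/6xC3H)F2-op/op mice, whose op mutation inactivates macrophage colony-stimulating factor. RNA-seq was performed on 6 reaggregates, in which OP9 cells were packed together and kept for 48 h on filters at the liquid-gas interface, and on 4 flat cultures grown submersed. Per the authors' Methods, reaggregates were taken apart with collagenase/dispase before RNA extraction, a handling step tied to the culture condition. Reaggregates 1, 3 and 5 received no IL-3, and reaggregates 2, 4 and 6 received IL-3, labelled as 200 µg/µl. The labels name the de Bruijn laboratory as the source of flat cultures 2 and 4, and flat cultures 1 and 3 and all reaggregates carried no source label. Values are reads on a gene scaled to a library total of 1000000 (RPM). The depth estimated from the commonest value above 0, taken as 1 read, was between 7.35 and 9.43 M reads on genes, and the median was 8.49 M for reaggregates and 8.37 M for flat cultures. At this depth 3 reads, taken as the floor of detection, corresponded to between 0.318 and 0.408 RPM, which covers counting error only.

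Consecutive reaggregates (1 and 2, 3 and 4, 5 and 6) were more alike than other reaggregates, with Pearson's r between 0.994 and 0.995 across genes against 0.961 to 0.980. Nothing in the labels says whether they came from separate cultures, so p-values measure only the spread between these libraries, and calls are also given with each such pair averaged. The question addressed was how reaggregation changed the OP9 transcriptome relative to flat culture. It was tested with limma on log2(RPM + 0.5) in the 16933 genes that exceeded 0.5 RPM in 1 library or more. A gene was called at a fold change of at least 2 when its p, adjusted over all tested genes after Benjamini and Hochberg, did not exceed 0.05. Fold changes on this scale understate the change of genes with low RPM.

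The CC ligands Ccl2, Ccl7 and Ccl9 fell after reaggregation, whereas the membrane-anchored ligands Cx3cl1 and Cxcl16 were called higher. The calls of Cx3cl1 and Cxcl16 did not hold with consecutive reaggregates averaged or against the flat cultures with no source label alone. That of Ccl2 did not hold with reaggregates averaged or against the de Bruijn flat cultures alone, and that of Ccl7 against those with no source label alone. Cxcl1 and Cxcl5 did not pass the test and differed more between the flat cultures than between the culture conditions. Cxcl10 stayed near the floor of detection, and Ccl4 was not detectable at this depth. In all, 8 of the 9 measured ligands passed the filter on low values, and 2 were called higher and 3 lower. Across all tested genes, 7.32% were called higher, 6.53% lower and 13.8% in either direction. As the ligands were chosen with results of these libraries known, these counts are a description. In bulk RNA, fewer cells expressing a gene and less RNA per cell cannot be told apart.

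**Figure D1:**
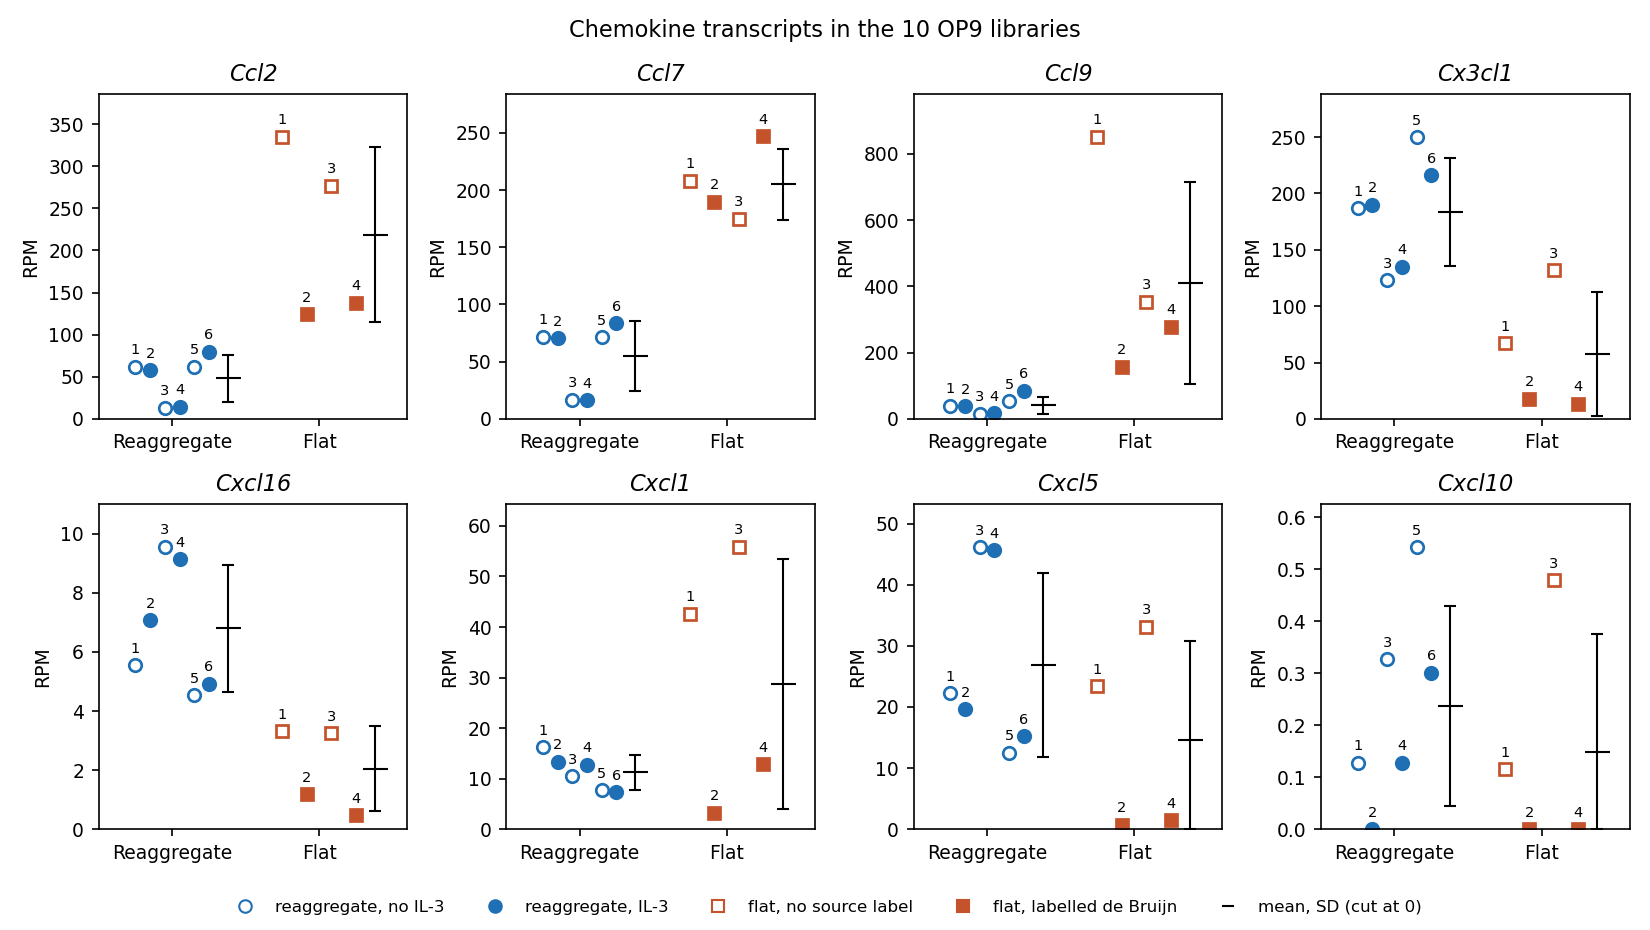
RPM of the 8 chemokine genes that passed the filter on low values, on a linear axis from 0, in each reaggregate (circles, n = 6) and flat culture (squares, n = 4), numbered by replicate. Filled circles received IL-3, filled squares were labelled de Bruijn, and bars give the mean and SD, cut at 0. The reaggregates lie below all flat cultures for Ccl2, Ccl7 and Ccl9 and above them for Cxcl16.

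Ccl2, also known as MCP-1, is the main ligand of Ccr2 and calls monocytes out of the bone marrow. In flat cultures 1 to 4 Ccl2 was at 335, 124, 277 and 138 RPM, and in the reaggregates it had a lowest value of 13.0, a median of 59.9 and a highest value of 79.8 RPM. Every reaggregate was below every flat culture, and reaggregates 3 and 4, at 13.0 and 14.6 RPM, were the lowest of all. The mean Ccl2 level was 218.5 ± 104 RPM (n = 4, SD) in flat cultures and 48.2 ± 27.7 RPM (n = 6, SD) in reaggregates, for a log2 fold change of −2.35 (95% confidence interval −3.54 to −1.15, limma adjusted p = 0.00967).

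Ccl7, or MCP-3, shares monocyte receptors with Ccl2. Flat cultures 1 to 4 held 208, 190, 175 and 247 RPM of Ccl7, the narrowest spread among the 3 CC ligands that fell. Its reaggregate values ran from 16.3 through a median of 70.9 to 83.6 RPM. The groups did not overlap, and reaggregates 3 and 4 again stood lowest, at 16.8 and 16.3 RPM. The mean of Ccl7 was 205 ± 31.1 RPM (n = 4, SD) in flat cultures and 55.0 ± 30.2 RPM (n = 6, SD) in reaggregates, for a log2 fold change of −2.16 (interval −3.22 to −1.10, limma adjusted p = 0.00785).

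Ccl9, a myeloid chemoattractant that binds Ccr1, showed the widest difference. It was at 851, 158, 354 and 278 RPM in flat cultures 1 to 4, and between 15.6 and 84.3 RPM, with a median of 39.5 RPM, in the reaggregates. Flat culture 1 was far above the rest, and even the lowest flat culture exceeded the highest reaggregate. Ccl9 averaged 410.2 ± 305 RPM (n = 4, SD) in flat cultures and 41.6 ± 25.5 RPM (n = 6, SD) in reaggregates, a 9.87-fold difference of means and a log2 fold change of −3.25 (interval −4.39 to −2.10, limma adjusted p = 0.00151). Flat culture 1 raised the flat mean and with it the fold of means.

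Each of these 3 ligands reached the smallest p that 6 libraries against 4 allow, 0.00476 (exact permutation test, two-sided, 210 splits). With consecutive reaggregates averaged to 3 values, Ccl7 and Ccl9 were still called (limma adjusted p = 0.0445 and 0.0264), and Ccl2 was not (0.0610). Against the de Bruijn flat cultures alone the log2 fold change of Ccl2 was −1.74 (adjusted p = 0.0598), and against the flat cultures with no source label alone that of Ccl7 was −2.07 (adjusted p = 0.0696). With only the reaggregates without IL-3 the call of Ccl2 was lost (limma adjusted p = 0.0533). With only those with IL-3 the calls of Ccl2 and Ccl7 were lost (limma adjusted p = 0.0667 and 0.0527). Over the 24 alternatives the adjusted p of Ccl2 ranged from 0.00762 to 0.0667, that of Ccl7 from 0.00143 to 0.0696 and that of Ccl9 from 0.00119 to 0.0340. Without reaggregates 3 and 4, a choice made after seeing the values, the log2 fold changes of Ccl2, Ccl7 and Ccl9 were −1.61, −1.45 and −2.71, and all 3 passed the test.

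Cx3cl1, or fractalkine, holds monocytes and other cells that carry Cx3cr1 to the surface of the cell that makes it. Its reaggregate values ran from 123 through a median of 188.5 to 250 RPM, whereas flat cultures 1 to 4 held 67.2, 18.1, 132 and 13.6 RPM. Flat culture 3 lay within the range of the reaggregates, just above reaggregate 3, and the other flat cultures lay below it. Cx3cl1 averaged 183.5 ± 48.1 RPM (n = 6, SD) in reaggregates and 57.7 ± 55.1 RPM (n = 4, SD) in flat cultures, for a log2 fold change of 2.19 (interval 1.01 to 3.37, limma adjusted p = 0.0120). The exact permutation p was 0.00952 (two-sided).

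Cxcl16, the ligand of Cxcr6 and a scavenger receptor for oxidized lipoprotein, was expressed at a lower level. It was between 4.54 and 9.56 RPM in reaggregates, with a median of 6.32 RPM, and at 3.31, 1.18, 3.24 and 0.466 RPM in flat cultures 1 to 4. All reaggregates were above all flat cultures, and reaggregates 3 and 4, lowest for the CC ligands, were the highest for Cxcl16. The mean was 6.80 ± 2.16 RPM (n = 6, SD) in reaggregates and 2.05 ± 1.45 RPM (n = 4, SD) in flat cultures, for a log2 fold change of 1.68 (interval 0.81 to 2.55, limma adjusted p = 0.0102; exact permutation p = 0.00476). Exons of Cxcl16 overlap those of Zmynd15 on the opposite strand by 552 bases, and the library kit named in the labels does not mark strand, so that reads from the overlap cannot be assigned to either gene.

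The rise of both genes was not called with consecutive reaggregates averaged (limma adjusted p = 0.107 for Cx3cl1 and 0.0954 for Cxcl16), nor against the flat cultures with no source label alone, where the log2 fold changes were 0.91 and 0.90 (adjusted p = 0.0812 and 0.0783). Against the de Bruijn flat cultures alone they were 3.46 and 2.47. Without reaggregates 3 and 4 the call of Cxcl16 was lost (adjusted p = 0.0569) and that of Cx3cl1 held (0.0330). Over all 24 alternatives the adjusted p of Cx3cl1 ranged from 8.97e-06 to 0.11 and that of Cxcl16 from 0.000376 to 0.105.

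Cxcl1 and Cxcl5 both attract neutrophils through Cxcr2. Cxcl1 was at 42.6, 3.22, 55.9 and 12.8 RPM in flat cultures 1 to 4 and between 7.33 and 16.2 RPM, with a median of 11.6 RPM, in reaggregates. The reaggregates thus lay below flat cultures 1 and 3, above flat culture 2 and on both sides of flat culture 4. Its log2 fold change was −0.71 (interval −2.09 to 0.67, limma adjusted p = 0.400). Against the flat cultures with no source label alone Cxcl1 was lower in reaggregates, by a log2 fold change of −2.12 (adjusted p = 0.00274), and against the de Bruijn flat cultures the sign turned, to 0.69 (adjusted p = 0.232). It was also called lower when flat culture 2 was left out (log2 fold change −1.49, adjusted p = 0.0296). Over 24 alternatives the adjusted p of Cxcl1 ran from 0.00274 to 0.825.

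Cxcl5 was at 23.4, 0.716, 33.1 and 1.46 RPM in flat cultures 1 to 4. Its reaggregate values ran from 12.5 through a median of 20.9 to 46.1 RPM, and reaggregates 3 and 4 were highest, at 46.1 and 45.6 RPM. The values of the reaggregates surrounded those of flat cultures 1 and 3 and were all well above those of flat cultures 2 and 4. The log2 fold change was 1.87 (interval −0.05 to 3.79, limma adjusted p = 0.124), 3.97 against the de Bruijn flat cultures alone (adjusted p = 0.000201) and −0.23 against those with no source label alone (adjusted p = 0.780). Without flat culture 3 it was 2.65 and passed the test (adjusted p = 0.0241), and over 24 alternatives the adjusted p ranged from 0.000201 to 0.780.

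**Figure D2:**
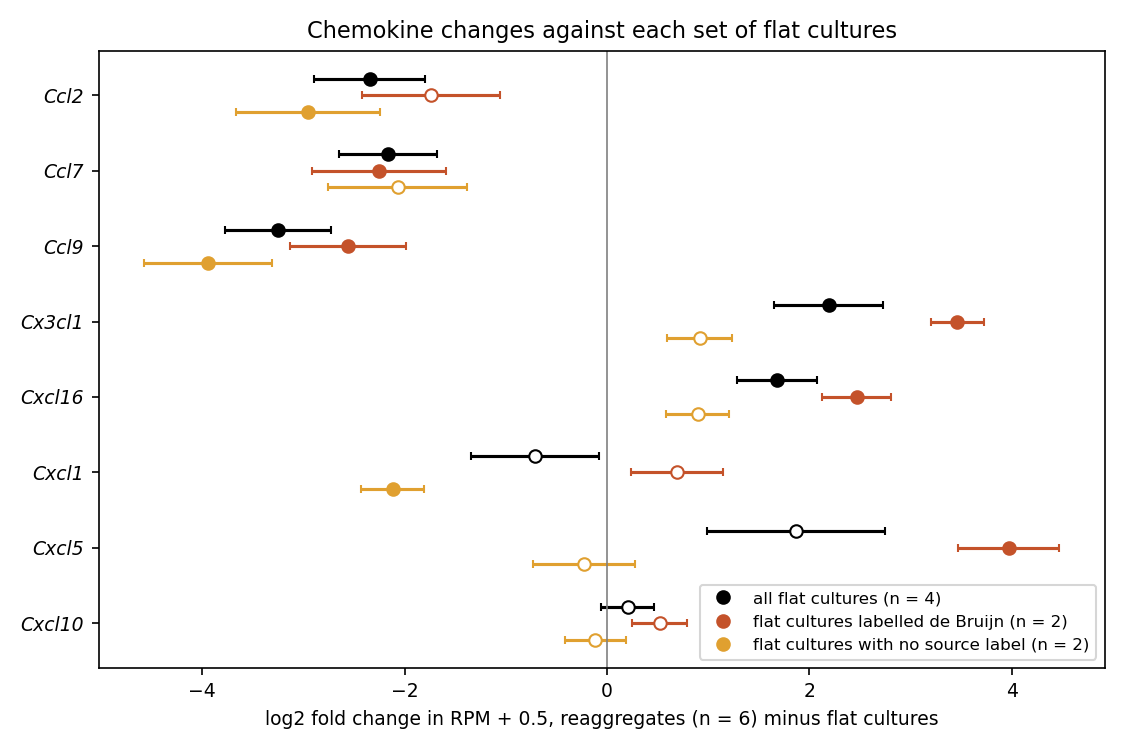
Log2 fold change in RPM + 0.5 of 8 chemokine genes (reaggregates minus flat cultures, n = 6 reaggregates) against all flat cultures (black), those labelled de Bruijn (red) and those with no source label (yellow). Bars are the SE of the limma fit and filled points passed the test, as Ccl9 did in all 3 fits, from −3.94 to −2.55, while Cxcl1, Cxcl5 and Cxcl10 changed sign.

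Cxcl10, an interferon-inducible ligand of Cxcr3, reached at most 0.542 RPM in reaggregates, in reaggregate 5, and 0.479 RPM in flat cultures, in flat culture 3. No other library exceeded 3 reads, and flat cultures 2 and 4 and reaggregate 2 were listed at 0. Ccl4, also known as MIP-1β and made by activated macrophages and lymphocytes, had a value of 0.109 RPM in reaggregate 3, about 1 read, and was listed at 0 in the other libraries.

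RPM does not account for transcript length, so levels of different genes were compared per kilobase of annotated exon. In flat cultures the order of the mean levels was Ccl7 (256 RPM per kb), Ccl2 (192), Ccl9 (135), Cxcl1 (30), Cx3cl1 (15.6), Cxcl5 (8.86), Cxcl16 (0.678) and Cxcl10 (0.0977). The ranges of mean ± SD overlapped for every neighbouring pair in that order. In reaggregates the order was Ccl7 (68.7 RPM per kb), Cx3cl1 (49.5), Ccl2 (42.4), Cxcl5 (16.2), Ccl9 (13.7), Cxcl1 (11.8), Cxcl16 (2.25) and Cxcl10 (0.156). There the ranges of mean ± SD overlapped between neighbours from Ccl7 to Cxcl1, whereas Cxcl16 and Cxcl10 each lay below the gene before them by more than these ranges. Ccl7 thus had the highest mean of these 8 ligands in both conditions, but not in every library: it was exceeded in flat cultures 1 and 3 and in reaggregates 3 and 4.

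No chemokine ligand was called for IL-3. Within the reaggregates, which share their culture format, 3 libraries with IL-3 were compared with 3 without it. Ccl2 averaged 50.7 ± 33.2 RPM with IL-3 and 45.7 ± 28.3 RPM without it (n = 3 each, SD), and Cx3cl1 averaged 180 ± 41.4 and 187 ± 63.5 RPM. The log2 differences of the 8 tested ligands lay between −0.37, for Cxcl10, and 0.25, for Ccl9, whose 95% interval ran from −1.39 to 1.90. These intervals include the spread between the 3 consecutive pairs, each of which is 1 library without IL-3 and 1 with it. With the pairs as a block, the log2 difference of Ccl2 was 0.14 with an SE of 0.0985 (limma adjusted p = 0.982), and no ligand was called. Cxcl10 was lower with IL-3 in each pair, at 0.128 and 0 RPM, 0.327 and 0.128 RPM, and 0.542 and 0.301 RPM, a block difference of −0.37 with an SE of 0.149 (adjusted p = 0.982). These Cxcl10 values are about 5 reads or fewer, too near the floor for a change to be judged. The limma fit without the block called 0 of the 16933 genes (0%), and 68 had an unadjusted p under 0.05. An exact permutation test of 3 against 3 cannot give a p below 0.1.

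Between cell sources, 2 of the ligands were called within the flat cultures. Cxcl5 averaged 1.09 ± 0.526 RPM in the de Bruijn cells and 28.2 ± 6.86 RPM in the cells with no source label (n = 2 each, SD), a log2 difference of −4.20 (95% interval −5.27 to −3.13, limma adjusted p = 0.0101). Cx3cl1 averaged 15.8 ± 3.18 and 99.6 ± 45.8 RPM, a log2 difference of −2.55 (interval −3.57 to −1.52, adjusted p = 0.0321). Both of these were lower in the de Bruijn cells, and of all tested genes 5.7% were called in either direction. Cxcl1 (8.01 ± 6.77 and 49.2 ± 9.40 RPM), Cxcl16 (0.823 ± 0.505 and 3.28 ± 0.0495 RPM) and Ccl2 (131 ± 9.90 and 306 ± 41.0 RPM) had log2 differences of −2.81, −1.57 and −1.22 and adjusted p of 0.0722, 0.0863 and 0.0717. Ccl7 was nearly level, at 218.5 ± 40.3 and 191.5 ± 23.3 RPM, with a log2 difference of 0.18 (interval −0.56 to 0.92).

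The median log2 difference between sources over all tested genes was −0.17, and quantile normalization raised it by 0.22 and median-ratio scaling by 0.13. Over 9 alternatives the adjusted p ranged from 0.000200 to 0.183 for Cxcl5 and from 0.00269 to 0.287 for Cx3cl1. With any 1 flat culture left out, neither was called, nor was any other gene. With 2 libraries against 2, no exact permutation p can fall below 0.333. Of the adipocyte markers Pparg, Cebpa, Adipoq, Plin1 and Fabp4, all but Cebpa and Adipoq were called higher in the de Bruijn cells. Among all 16933 tested genes 309 were called higher there. The summed level of the 5 was 1020 and 1126 RPM in flat cultures 2 and 4, 116 and 170 RPM in flat cultures 1 and 3, and between 90.9 and 133 RPM in the reaggregates. Fabp4, a fatty acid carrier of fat cells and the highest of them in RPM in the de Bruijn cells, was at 435 and 711 RPM against 31.3 and 47.2 RPM, a log2 difference of 3.84 (limma adjusted p = 0.00940). In all other libraries Pparg was higher than Fabp4. Between culture conditions Pparg, Cebpa and Fabp4 were called lower in reaggregates, with log2 fold changes of −1.67, −1.36 and −2.37, against 6.53% lower among all tested genes. None of these genes was called against the flat cultures with no source label alone or with consecutive reaggregates averaged. Their part in the chemokine differences was not tested.

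Several of the ligands lie in clusters with relatives of lower level. Coordinates are those of NCBIM37, the assembly the reads were aligned to. Ccl2 (listed as ENSMUSG00000035385, chr11:81849073-81850955, plus strand) and Ccl7 (ENSMUSG00000035373, chr11:81859214-81861027, plus strand) are neighbours separated by 8.26 kb. The eosinophil attractant Ccl11 begins 10.3 kb beyond Ccl7, and both it and Ccl8 stayed under the floor, at 0.217 RPM or less. Ccl9 (ENSMUSG00000019122, chr11:83386421-83392138, minus strand) lies in a separate CC cluster farther along chromosome 11. Its neighbour Ccl6, at a distance of 9.25 kb, also encodes a myeloid attractant and fell from 2.40 ± 0.417 RPM (n = 4, SD) to 0.879 ± 0.407 RPM (n = 6, SD), a log2 fold change of −1.11 (limma adjusted p = 0.00741) that was not called with consecutive reaggregates averaged. Ccl5, on the other side of Ccl9, was at most 1.84 RPM and was not called against all flat cultures. It was called higher in reaggregates against the de Bruijn flat cultures alone (log2 fold change 1.71, limma adjusted p = 0.00528) and lower in the de Bruijn cells than in the other flat cultures (adjusted p = 0.0177). Ccl3 was listed at 0 in every library.

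On chromosome 5, Cxcl5 (ENSMUSG00000029371, chr5:91188325-91190651, plus strand) and Cxcl1 (ENSMUSG00000029380, chr5:91320267-91322141, plus strand) stand toward opposite ends of a cluster of neutrophil attractants. Between them the platelet chemokine genes Ppbp and Pf4 reached at most 0.345 and 0.651 RPM, and Cxcl15 3.07 RPM. Cxcl3 and Cxcl2, close relatives of Cxcl1 and classic NF-kB targets, were listed at 0 throughout. Cxcl9 and Cxcl11, which flank Cxcl10 (ENSMUSG00000034855, chr5:92775664-92777915, minus strand), were at 0 and at most 0.128 RPM. Cx3cl1 (ENSMUSG00000031778, chr8:97295909-97306323, plus strand) has Ccl22 and Ccl17 as neighbours on either side, at most 0.115 and 0.744 RPM. Cxcl16 (ENSMUSG00000018920, chr11:70267485-70273486, minus strand) stands apart from the clusters.

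**Figure D3:**
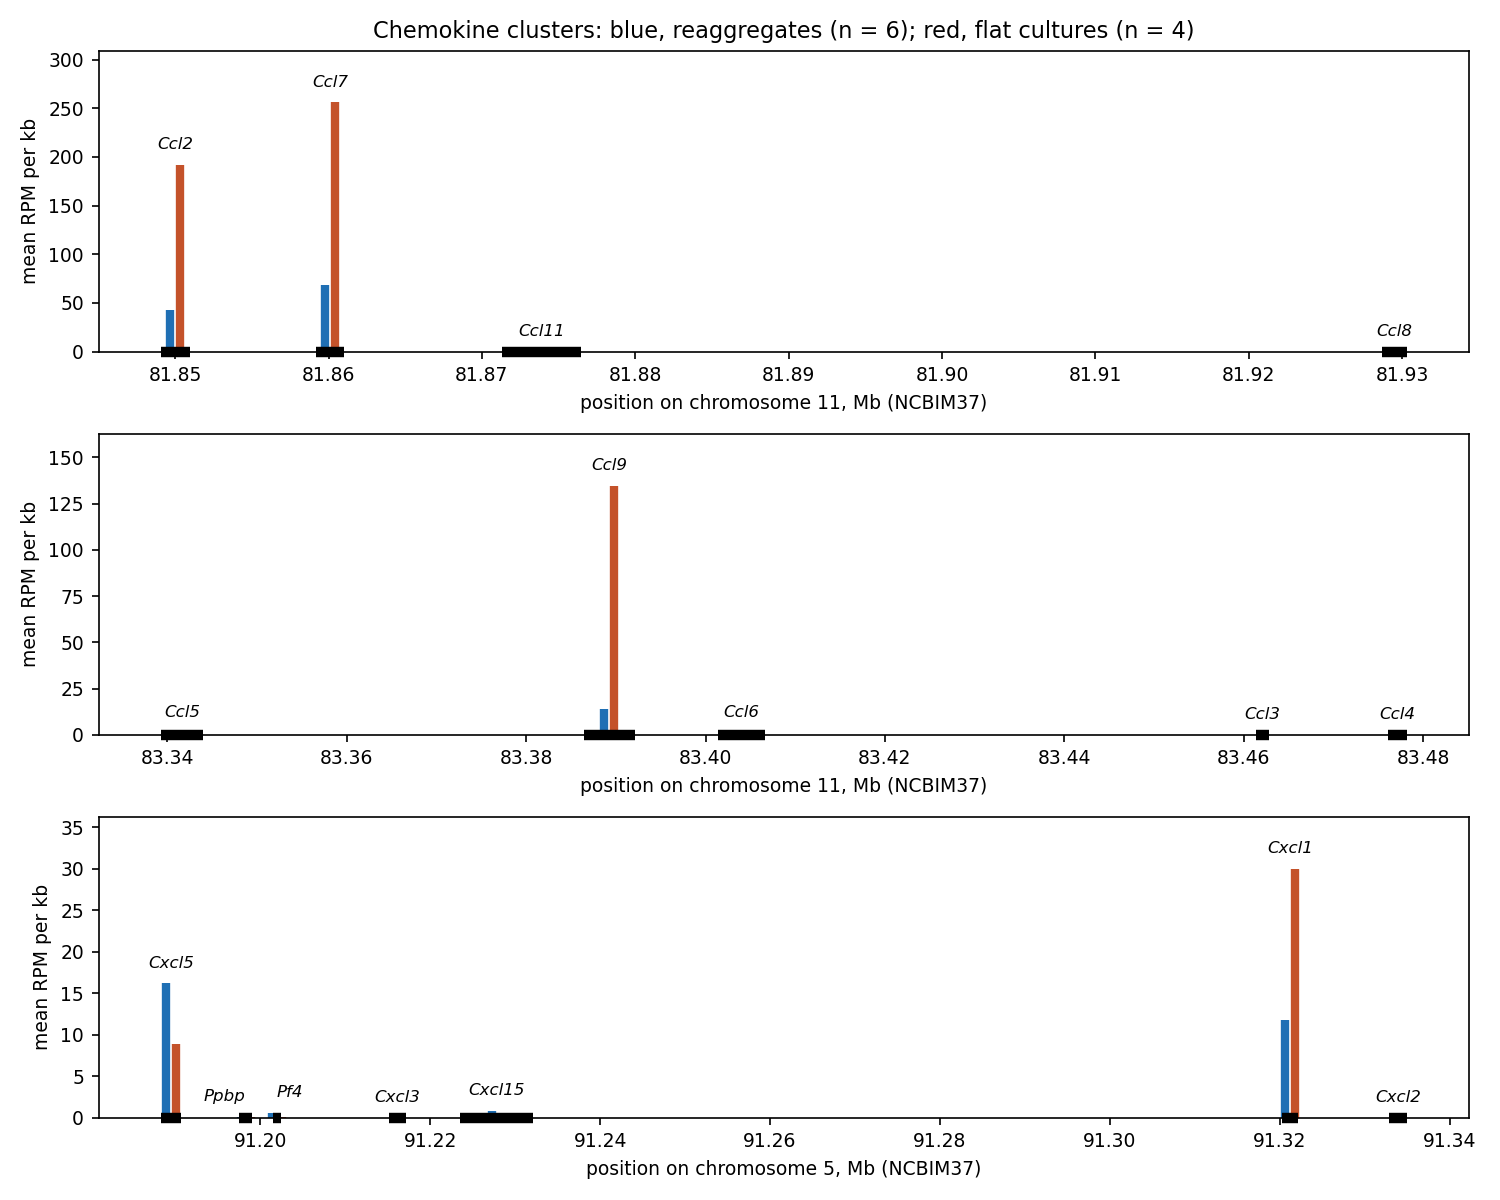
Mean RPM per kb of exon of chemokine genes at their positions (Mb) in the Ccl2 and Ccl9 clusters of chromosome 11 and the Cxcl5 to Cxcl1 cluster of chromosome 5, with gene bodies as black bars and reaggregates (n = 6) in blue and flat cultures (n = 4) in red. Ccl7 stands highest, at 68.7 and 256 RPM per kb, while Ccl11, Ccl8, Ccl3, Cxcl3 and Cxcl2 are at or near 0.

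Of the 30 other chemokine ligands listed for comparison, 24 were measured and 8 passed the filter. Of these 1, Ccl6, was called, in the lower direction, where 6.53% of all tested genes were called lower. Their median log2 fold change was 0.66, that of the 8 tested ligands above −0.25 and that of all tested genes 0.04. The highest in RPM was Cxcl12, the homeostatic ligand by which marrow stroma retains hematopoietic stem cells. It was at 125, 4560, 662 and 3990 RPM in flat cultures 1 to 4 and between 546 and 2300 RPM in reaggregates, with the highest values in reaggregates 3 and 4. Between conditions Cxcl12 did not differ beyond its spread (log2 fold change −0.09, limma adjusted p = 0.945). Its sign depended on the source: it was called lower in reaggregates against the de Bruijn flat cultures alone, by a log2 fold change of −2.03, and turned to 1.85 against those with no source label (adjusted p = 0.115).

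Of 23 chemokine receptors listed, 17 were measured, 5 passed the filter and 1 was called higher, against 7.32% higher among all tested genes. Ackr4 (listed as Ccrl1), an atypical receptor that takes up and degrades some chemokines, rose from 0.669 ± 0.538 RPM (n = 4, SD) to 4.77 ± 2.40 RPM (n = 6, SD). The groups did not overlap, and the log2 fold change was 2.13 (limma adjusted p = 0.00468). Ackr4 was called with consecutive reaggregates averaged but not against the flat cultures with no source label alone (log2 fold change 1.6, limma adjusted p = 0.0647). Its exons overlap those of Acad11, on the opposite strand, and of another Ccrl1 entry by 328 bases in all. Reads from the overlap cannot be assigned to 1 gene. Ackr3 (listed as Cxcr7), the scavenger of Cxcl12 and the receptor highest in RPM, was level at 39.1 ± 16.0 and 35.3 ± 9.09 RPM. The signaling receptors Ccr1, Cxcr2, Cxcr6 and Cx3cr1, which bind the ligands above, were at most 0.277 RPM, under the floor. Ccr2, Cxcr3 and Cxcr4 were not analysed here.

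Cytokines induce most inflammatory chemokines through NF-kB, whose activity was not measured. Of its mRNAs, all 23 listed components passed the filter, 2 were called higher and 0 lower, with a median log2 fold change of 0.43, where 7.32% of all tested genes were called higher. Relb, a subunit of the noncanonical pathway, rose from 10.8 ± 5.61 RPM (n = 4, SD) to 23.0 ± 7.01 RPM (n = 6, SD), a log2 fold change of 1.13 (limma adjusted p = 0.0260). Map3k14, the kinase that drives that pathway, rose from 18.9 ± 13.2 to 49.2 ± 8.38 RPM, a log2 fold change of 1.63 (adjusted p = 0.0111) without overlap. Neither was called against the flat cultures with no source label alone or with consecutive reaggregates averaged. The component highest in RPM in reaggregates, though not per length, was Map3k7, which was at 135 ± 23.9 RPM there and was not called. In flat cultures it was at 99.0 ± 40.5 RPM, and Ikbkg was higher, at 106 ± 17.1 RPM.

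Transcripts of Tnf, Il1a, Il1b and Ifng, cytokines that classically induce these chemokines, were close to absent, and cytokine protein was not measured. Tnf and Il1b were listed at 0 in every library, Ifng was above 0 only in flat culture 3, at 0.12 RPM, and Il1a was at most 0.256 RPM. Of the 18 listed cytokines and receptors, 14 passed the filter and 0 were called, with 0.28 as the median log2 fold change. Against the de Bruijn flat cultures alone 5 were called higher, where 2579 of all 16933 tested genes were, and against those with no source label 2 were called lower, where 1044 of all were. Of these Il6, at most 7.30 RPM, had a log2 fold change of −1.79 (limma adjusted p = 0.00313). Il1rn, which encodes the secreted antagonist of the interleukin 1 receptor and was the highest of the list in RPM, was at 590, 0.596, 1310 and 0.364 RPM in flat cultures 1 to 4. It was between 469 and 918 RPM in reaggregates, so that its difference between sources (log2 −9.82, limma adjusted p = 0.00490) was far wider than that between conditions (log2 4.56, adjusted p = 0.0852). Flat cultures 2 and 4 were thus low in Il1rn as well as in Cxcl5, Cx3cl1 and Cxcl16.

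Of 12 interferon-inducible genes, all tested, 2 were called higher and 0 lower, against 7.32% higher among all tested genes, with a median log2 fold change of 0.55. The transcription factor genes Irf1 and Irf9 rose to 51.3 ± 11.9 and 23.1 ± 5.64 RPM (n = 6, SD) from 25.1 ± 15.4 and 12.1 ± 7.66 RPM (n = 4, SD), with log2 fold changes of 1.2 and 1.04 (limma adjusted p = 0.0287 and 0.0354). Both calls were lost with consecutive reaggregates averaged and against the flat cultures with no source label alone. Cxcl10, the ligand most closely tied to interferon, thus stayed near the floor while Irf1 and Irf9 were clearly expressed.

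Adam10 and Adam17, the sheddases that release Cx3cl1 and Cxcl16 from the membrane, were both expressed and not called. Adam10, the higher in RPM, was at 248 ± 28.3 RPM in reaggregates and 170 ± 34.9 RPM in flat cultures without overlap, a log2 fold change of 0.56 that is below the required fold. Dpp4, which trims the ends of several chemokines, was listed at 0 in all libraries but reaggregate 1, at 0.000143 RPM. Of 5 factors that bind AU-rich or other elements in chemokine mRNA, 1 was called higher, against 7.32% higher among all tested genes. Zfp36l1, which promotes the decay of such mRNA, rose from 70.6 ± 67.7 RPM (n = 4, SD) to 392 ± 70.2 RPM (n = 6, SD), a log2 fold change of 2.85 (limma adjusted p = 0.000908), without overlap, and it was called with consecutive reaggregates averaged and against each source alone. Exons of Zfp36l1 overlap a gene on the opposite strand, Gm17591, by 1672 of 2984 bases, and reads from the overlap cannot be assigned to either. Zfp36l2, the highest of them in RPM, was at 604 ± 120 and 357 ± 81.5 RPM, with a log2 fold change of 0.76.

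Immediate early and stress genes, which respond to handling and to serum within minutes, were called in part. Of 14 tested, 9 were called higher in reaggregates and 0 lower, against 7.32% higher among all tested genes, and their median log2 fold change was 2.08. Egr1, Junb, Ier2, Ier3 and Dusp1 were not called, and the last 3 of these had negative values. Fosb, Atf3, Nr4a1, Egr3 and Fos led, with log2 fold changes of 4.19, 4.08, 3.98, 3.36 and 2.53. The summed level of the list was between 2615 and 3408 RPM in reaggregates, 562, 869 and 982 RPM in flat cultures 1, 2 and 4, and 3215 RPM in flat culture 3, where Egr1, the highest of them in RPM, reached 1030 RPM. Flat culture 3 was also the flat culture with the most Cx3cl1, Cxcl1 and Cxcl5, and the one with the least Ccl7, while it had neither the most nor the least Ccl2 or Ccl9. Without flat culture 3, the ligands Ccl2, Ccl7, Ccl9, Cx3cl1 and Cxcl16 passed the test with log2 fold changes of −2.19, −2.23, −3.23, 2.77 and 1.94, and Cxcl5 was called as well. With consecutive reaggregates averaged 3 of the 14 stress genes were called higher, where 312 of all 16933 tested genes were. Against the flat cultures with no source label alone 3 were called higher, where 627 of all were, with a median of 1.19. The part of the stress genes in the chemokine differences was not tested.

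Upstream sequences of Ccl9, Cx3cl1, Cxcl1 and Cxcl10 were found in the RefSeq promoter table (GRCm38.p6), and each matched NCBIM37 exactly at 1 place. The 250 bases before the RefSeq start were searched on both strands for the NF-kB consensus of 10 bases, for the AP-1 motif TGANTCA and for TATAAA. Among 32851 promoters of the same length, 3.90% held the NF-kB consensus, 6.75% TGANTCA and 12.4% TATAAA. Ccl9, the ligand that fell furthest, held 1 NF-kB match on the minus strand, 35 bases before the start. It also held TGANTCA with A as N, 53 bases before the start, and 3 TATAAA matches, at 224, 94 and 92 bases. Of the TATAAA matches, those at 224 and 94 bases were on the minus strand, and those at 94 and 92 bases overlap. Cxcl1 held a pair of NF-kB matches that overlap on opposite strands, beginning 71 bases before the start. Cxcl10, near the floor in every library, held 2, from 159 and 103 bases before the start, and TGANTCA with G as N. Cx3cl1 held TATAAA and neither of the others, but most of its window lies inside the gene as annotated here, downstream of the start given above. These letters are a description of the windows, and binding was not measured. The sequences of the 3 promoters with NF-kB matches are shown, because they set a ligand that fell, a ligand that was not called and a ligand that was barely detected side by side. Each is given from 5′ to 3′ on the strand of the gene, with the NF-kB matches in capitals, at chr11:83392139-83392388 (minus strand) for Ccl9, chr5:91320021-91320270 (plus strand) for Cxcl1 and chr5:92777916-92778165 (minus strand) for Cxcl10.
Ccl9: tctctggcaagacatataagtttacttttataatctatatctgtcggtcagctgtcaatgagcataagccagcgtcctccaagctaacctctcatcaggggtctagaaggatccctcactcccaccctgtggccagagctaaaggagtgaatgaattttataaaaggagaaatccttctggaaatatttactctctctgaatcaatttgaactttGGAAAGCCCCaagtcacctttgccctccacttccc
Cxcl1: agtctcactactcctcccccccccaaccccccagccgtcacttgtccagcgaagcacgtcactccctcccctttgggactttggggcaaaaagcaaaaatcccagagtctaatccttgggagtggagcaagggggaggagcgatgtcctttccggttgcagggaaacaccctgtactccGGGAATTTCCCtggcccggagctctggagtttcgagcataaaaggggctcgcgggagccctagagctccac
Cxcl10: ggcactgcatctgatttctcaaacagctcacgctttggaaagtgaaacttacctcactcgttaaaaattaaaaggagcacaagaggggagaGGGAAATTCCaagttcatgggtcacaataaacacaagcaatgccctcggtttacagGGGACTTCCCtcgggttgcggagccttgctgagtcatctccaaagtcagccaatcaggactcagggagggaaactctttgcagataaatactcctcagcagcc

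OP9 cells lack macrophage colony-stimulating factor, and the macrophage gene Adgre1 (listed as Emr1) and the leukocyte genes Ptprc and Fcgr3 were listed at 0 in all 10 libraries. Csf1r, which encodes the receptor of that factor, was at most 1.23 RPM. Of the 10 macrophage markers 7 passed the filter and 0 were called between culture conditions. Lyz2 was called lower in the de Bruijn cells (log2 difference −2.18, limma adjusted p = 0.0421). Their summed level was 33.0, 36.0, 18.8, 18.7, 34.8 and 36.9 RPM for reaggregates 1 to 6, against 59.0, 22.7, 47.3 and 19.4 RPM for flat cultures 1 to 4. Lyz2, which reached 48.5 RPM in flat culture 1, was the highest of them in every library but flat culture 2. There Cd68 was higher, at 8.23 RPM against 6.92 RPM. Reaggregates 3 and 4 and flat cultures 2 and 4 were the lowest, and flat culture 1, which held the most Ccl2 and Ccl9, was the highest. Ccl7 went the other way and was highest in flat culture 4, at 247 RPM. The 5 endothelial markers summed to at most 1.09 RPM in any library, and their highest gene in RPM, Pecam1, to at most 0.716 RPM. Of the blood lineage markers Cd3e and Gata1 were listed at 0, Itga2b, the highest in RPM, was called higher in reaggregates, at 17.3 ± 5.62 against 5.59 ± 4.69 RPM, and Hbb-b1 was not analysed here. The call of Itga2b was lost with consecutive reaggregates averaged (limma adjusted p = 0.127) and against the flat cultures with no source label alone (0.142). The part of these levels in the chemokine differences was not tested.

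Of 7 stromal markers tested, 5 were called higher in reaggregates, against 7.32% of all tested genes, while Mcam and Eng were not called (log2 fold change −0.40 and −0.01). Their summed level, most of it from Col1a1 and Col1a2, was between 14085 and 19802 RPM in reaggregates and 5577, 4138, 11290 and 2254 RPM in flat cultures 1 to 4. Pdgfra rose from 123 ± 34.6 to 363 ± 56.8 RPM, Pdgfrb from 238.5 ± 109 to 738 ± 75.6 RPM, and the collagen genes Col1a1 and Col1a2 by log2 fold changes of 1.93 and 1.83. The adhesion molecule gene Vcam1 rose from 69.7 ± 22.2 to 149 ± 31.8 RPM (log2 fold change 1.12, limma adjusted p = 0.00479), and was not called against the de Bruijn flat cultures alone (log2 fold change 0.85). Only Pdgfra and Pdgfrb of these were called with consecutive reaggregates averaged, and Col1a2 lost its call against the flat cultures with no source label alone (log2 fold change 1.05, limma adjusted p = 0.0767). Thy1 was at most 0.359 RPM and did not pass the filter.

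The genes whose log2 values followed the 4 ligands highest in RPM most closely over the 10 libraries were found among 11660 genes with a mean of at least 5 RPM. The libraries share culture condition, source and pairing, so that the correlations are a description. Ccl9 was followed most closely by Anln and Ect2, which act in cytokinesis, and by Obfc1, each with a Pearson's r of 0.988. Anln was at 210.8 RPM in flat cultures and 35.8 RPM in reaggregates. Cx3cl1 was followed by Notch1 (r = 0.995), Pcdh18 (0.992) and the complement gene C3 (0.991). Notch1 averaged 120 RPM in reaggregates and 38.6 RPM in flat cultures, and C3 265 and 44.9 RPM. Ccl2 was followed by Ube2g2 (r = 0.980), Mthfd1l (0.976) and RP24-364O14.1 (0.971), and Ccl7 by D10Jhu81e (0.981), Hspa4l (0.981) and AC129605.1 (0.978).

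The reaggregates and the flat cultures did not overlap for 4 of the 8 tested ligands, Ccl2, Ccl7, Ccl9 and Cxcl16, and for 19.1% of all tested genes. Reaggregates 3 and 4 were lowest among reaggregates for Ccl2, Ccl7, Ccl9 and Cx3cl1 and highest for Cxcl5 and Cxcl16. No label sets them apart from the other reaggregates.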

How the data were processed

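RNA-seq of 10 OP9 libraries was analysed from deposited values. The authors aligned reads with TopHat 1.2.0 to NCBIM37, per their Methods and processing notes, shared reads with several places between genes, and deposited RPM per gene. Their table also holds a log2 fold change and an adjusted p from DESeq for reaggregates against flat cultures, which were not used. Because divided reads leave fractions, no count test was run. The 0.5 RPM filter and the thresholds on fold and adjusted p are also those the paper states, and the pseudocount of 0.5 was chosen here. Tests used limma 3.58.1 (empirical Bayes with trend) in R 4.3.3, checked on simulated data, and exact permutation over libraries. Figures used matplotlib 3.10.9 in Python 3.11.15. Exon lengths and positions came from GENCODE vM1, a later Ensembl release than the authors used on the same assembly. Other pseudocounts, filters, scalings, subsets and left-out libraries were tried. The members and lists were chosen with earlier results of these data known. Named genes are the members, the gene highest in RPM of most lists, its up to 5 largest called changes per direction, any marker, and the 3 genes most correlated with each of the 4 members highest in RPM. Others (cytokines, receptors and cluster neighbours at or near 0, Cxcl2, Cxcl3, Ccl5, Adam17 among them) were named after their values were seen.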

Additional observations from a re-analysis of the deposited data

Results flagged for a closer look

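Of 17 groups of values from the chemokine ligands examined for a library far from the rest, 1 held such a library, where chance gives 0.85. Ccl4 was at 0.109 RPM in reaggregate 3 and listed at 0 in the other reaggregates. That value is about 1 read and lies under the floor of 3 reads.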

How the results depend on the processing

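Reaggregates against flat cultures gave 1239 genes higher and 1106 lower, and 2 and 3 of the ligands. Other pseudocounts, filters, scalings and eBayes without trend kept all ligand counts. With only the reaggregates without IL-3 the counts were 345 higher and 474 lower, and 0 ligands higher. With only those with IL-3 they were 277 and 360, and 0 and 1 ligands, where fewer libraries enter. Against the de Bruijn flat cultures alone they were 2579 and 1775, with a Cxcl1 log2 fold change of 0.69. Against those with no source label 627 were higher, 0 of them ligands, with log2 fold changes of −0.23 for Cxcl5 and −0.11 for Cxcl10. Consecutive reaggregates averaged gave 312 and 429, and 0 ligands higher. Without reaggregates 3 and 4, chosen after seeing the values, 1 ligand was higher. With 1 library left out at a time, genes higher ran from 766 (without flat culture 4) to 2121 (without flat culture 3). The cause was not tested.

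Replicate number as a block gave 1885 genes higher. Reaggregates and flat cultures of the same number had r of −0.04, −0.21, 0.07 and 0.15 for numbers 1 to 4, and their best flat cultures were 3, 3, 4 and 4. The block changed no ligand count.

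For IL-3, 0 genes were called under every alternative. With 1 reaggregate left out at a time the log2 differences ran from −0.60 to 0.86 for Ccl2, −0.63 to 0.79 for Ccl7, −0.31 to 0.82 for Ccl9, −0.27 to 0.25 for Cxcl1, −0.43 to 0.51 for Cxcl5, −0.088 to 0.41 for Cxcl16 and −0.29 to 0.22 for Cx3cl1.

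Between sources 309 genes were higher and 656 lower in the de Bruijn cells, 2 of them ligands, both lower. In 1 fit of all 10 libraries the counts were 651 and 1406, and 4 ligands lower. Quantile normalization gave 791 higher and 4 ligands lower, and genes called higher made up 44.9% of calls against 32.0%. Without a filter the counts were 56 and 110, and 0 ligands. With any 1 flat culture left out they were 0 higher, 0 lower and 0 ligands, where the lone library is assumed to vary like the others, and the Ccl7 log2 difference ran from −0.0060 to 0.37. The cause was not tested.

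With 6 and 4 libraries, whose independence is not labelled, and 2 per source, small changes are missed. Cxcl10 and Ccl4 lie too near the floor for their changes to be judged at this depth. No reaggregate carried a source label, so source and culture condition cannot be told apart fully.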
